A study of Mus musculus with 6 samples.

Results

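The CCN family, 6 genes from Ccn1 to Ccn6 that encode matricellular proteins, was examined in mouse femur among 34361 genes of the deposited gene table. The members were found by gene name, and all 6 were present. The family was chosen with earlier results of the same comparison known, in which Ccn5 was among the large decreases. The group values of the members are therefore a description, given with no test. The libraries came from 3 mice labelled as a tamoxifen-induced knockout (called knockout-labelled here) and 3 control mice injected with corn oil. The treatment label names FGF21 as the gene knocked out, whereas the design text names Fshr, which encodes the follicle-stimulating hormone receptor. The series title concerns this hormone in osteocytes and ovariectomized mice. The labels used here do not give the driver of the deletion, the age or sex of the animals, or whether these mice were ovariectomized. Tamoxifen was given only to the knockout-labelled mice, so the drug and the knockout cannot be told apart.

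CCN proteins are secreted into the matrix around a cell, where they bind integrins, low-density lipoprotein receptor-related proteins, proteoglycans and growth factors. They modulate signalling by TGF-beta, BMP and Wnt ligands rather than building the matrix itself. Ccn1 (formerly Cyr61) and Ccn2 (formerly Ctgf) are immediate early genes and widely used targets of the Hippo pathway effectors YAP and TAZ. Ccn4 and Ccn5 (formerly Wisp1 and Wisp2) are named for their induction by Wnt1 in mouse mammary cells. Ccn3 (formerly Nov) has been described as an inhibitor of osteoblast differentiation. Loss of CCN6 in humans causes a progressive cartilage disorder, and Ccn5 lacks the C-terminal cystine knot module that the other members carry.

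Promoter sequences from RefSeq (GRCm38.p6) matched 2 of the 6 members, Ccn1 and Ccn6, which have the highest and the lowest mean level of the family in both groups. They are shown to set the control region of an abundant member beside that of a member near the detection limit. Each runs 5′ to 3′ over the 250 bases before the transcription start, on the minus strand, and capitals mark matches to the words searched.
Ccn1: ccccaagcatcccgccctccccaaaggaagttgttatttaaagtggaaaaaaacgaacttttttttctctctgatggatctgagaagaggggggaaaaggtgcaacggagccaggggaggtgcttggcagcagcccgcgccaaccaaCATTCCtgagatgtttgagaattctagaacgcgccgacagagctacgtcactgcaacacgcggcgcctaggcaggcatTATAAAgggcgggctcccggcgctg
Ccn6: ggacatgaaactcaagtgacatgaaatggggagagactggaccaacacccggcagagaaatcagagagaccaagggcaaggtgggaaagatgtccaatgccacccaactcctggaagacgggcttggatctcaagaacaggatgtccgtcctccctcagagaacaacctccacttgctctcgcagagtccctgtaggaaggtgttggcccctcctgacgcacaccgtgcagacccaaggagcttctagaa
The Ccn1 window lies at chr3:145649986-145650235 and the Ccn6 window at chr10:39163795-39164044. Both strands were searched for the TEAD word GGAATG, the AP-1 word TGANTCA, the TATA word TATAAA and the CArG box bound by serum response factor. TEAD proteins are the DNA-binding partners of YAP and TAZ. The Ccn1 window held the TEAD word on the opposite strand, read as CATTCC, 98 to 103 bases before the start, and a TATA word 20 to 25 bases before it. Of 32851 promoter windows of the same length, 12.6% held the TEAD word and 12.4% the TATA word. The AP-1 word was present in 6.75% and the CArG box in 1.47% of those windows. None of the 4 words was found in the Ccn6 window. The windows were alike in base composition, each with 54.8% G and C, but held 15 CpG pairs in Ccn1 and 6 in Ccn6.

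The estimated counts summed to 65796046 to 73494537 per library, in which a read pair adds about 4 counts. Fshr and Fgf21 were both listed at 0 in all 6 libraries. A count of 0 allows up to 12 counts (3 read pairs), or 0.163 to 0.182 CPM (counts scaled to library size), so neither target was detectable and the labels could not be checked with them. Femur was identifiable by its bone genes, with Col1a1, a chain of type I collagen, at 1074 ± 12.4 FPKM in knockout-labelled and 5537 ± 64.4 FPKM in control libraries (SD, n = 3 each). Skeletal muscle RNA was abundant too, with the muscle actin gene Acta1 at 12296 ± 52.5 FPKM in knockout-labelled and 3165 ± 58.2 FPKM in control libraries. Replicates of a group were close. The median gene differed by 0.075 to 0.079 on the log2 scale between knockout-labelled pairs and by 0.068 to 0.069 between control pairs. Its chi-square for a pair was 0.71 to 0.75, where counting error alone gives 0.45, and the mean per gene was 2.1 to 2.7. The design text speaks of separate mice. Replicates thus differed by more than counting error, yet by little on the log2 scale in the median gene. SDs, SEs and p-values measure the spread between these libraries, which may be technical.

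In knockout-labelled femur 4 of the 6 CCN genes had lower levels in FPKM and 1 had a higher level, and the remaining member, Ccn6, was near the detection limit. Ccn5 stood at the low end, 18 times lower in knockout-labelled than in control libraries before scaling. Ccn3 went the other way, 4.57 times higher in knockout-labelled libraries. Ccn1, Ccn4 and Ccn2 were lower in knockout-labelled libraries, by 2.36, 1.95 and 1.49 times in the same unscaled FPKM. The groups did not overlap for the 5 members that passed the filter on low counts, as for 64.4% of the 20388 genes that passed it. Because the family was chosen on this comparison, that count is not read as a result.

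**Figure D1:**
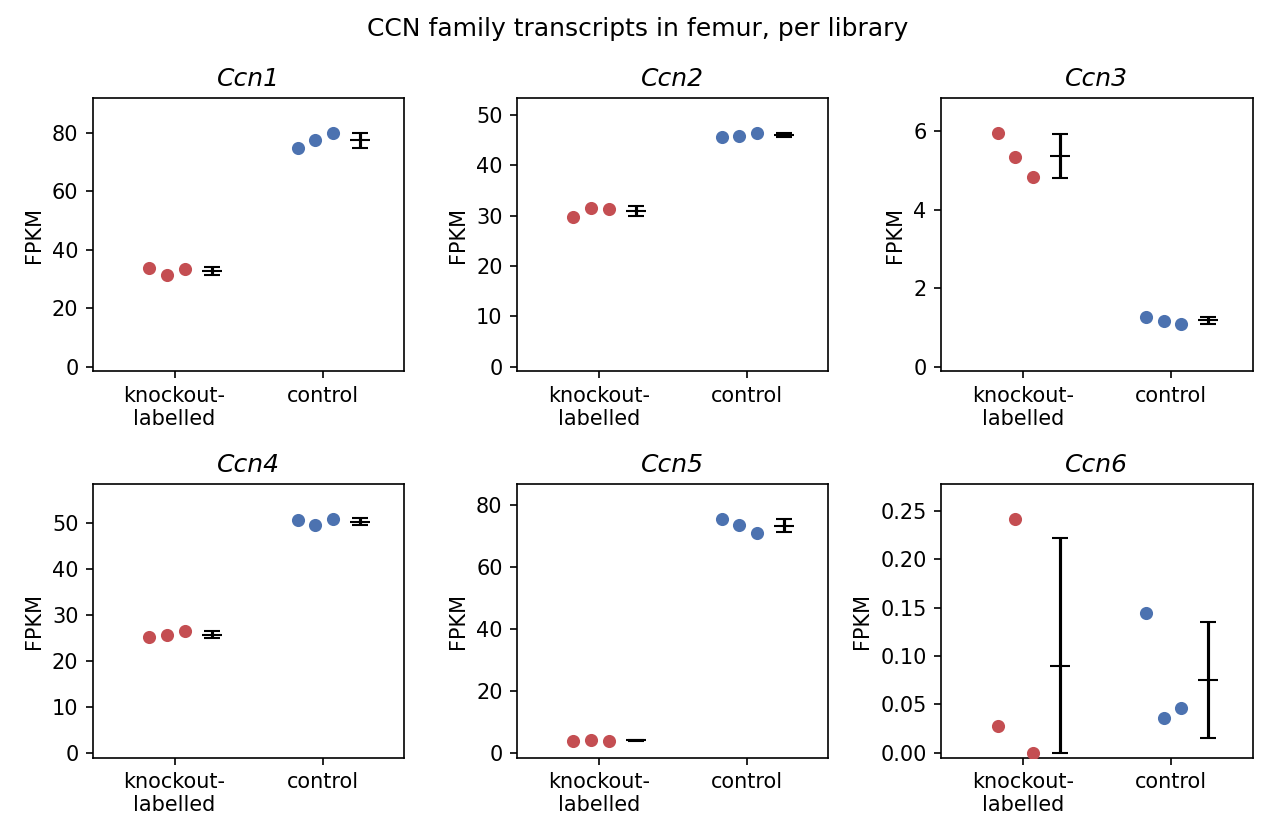
FPKM (vertical axis, linear, a different range in each panel) of the 6 CCN genes in each library. Points are libraries, with the 3 knockout-labelled ones to the left of the 3 controls, and bars are mean ± SD (n = 3 each). Ccn1, Ccn2, Ccn4 and Ccn5 lie lower and Ccn3 higher in the knockout-labelled libraries, with no overlap, and Ccn6 overlaps below 0.25 FPKM.

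Among the growth-responsive members, Ccn1 supports endothelial adhesion and angiogenesis. Ccn1 (ENSMUSG00000028195, chromosome 3, 145352731 to 145355736, minus strand, GRCm39) had 33.6, 31.3 and 33.4 FPKM in the knockout-labelled libraries and 74.8, 77.6 and 79.9 FPKM in the control libraries. Every knockout-labelled library was below every control. The log2 fold change after TMM scaling, which sets the typical gene near 0, was -0.82 (SE 0.047). Ccn2, which supports chondrocyte proliferation and matrix production, lies on chromosome 10 (ENSMUSG00000019997, 24471340 to 24474581, plus strand). It had 29.8, 31.5 and 31.3 FPKM in the knockout-labelled libraries and 45.7, 45.8 and 46.4 FPKM in the controls. The groups did not overlap, yet the scaled log2 fold change was only -0.15 (SE 0.024), because the unscaled log2 ratio of -0.58 lay close to the shift of the typical gene. Of all tested genes, 42.0% had a lower log2 fold change than Ccn2 and 14.2% a lower one than Ccn1.

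The Wnt1-inducible members had very different fold changes. Ccn4, which promotes osteoblast differentiation, lies on chromosome 15 (ENSMUSG00000005124, 66763169 to 66795050, plus strand). It had 25.1, 25.6 and 26.5 FPKM in the knockout-labelled libraries and 50.5, 49.4 and 50.7 FPKM in the controls. The scaled log2 fold change was -0.54 (SE 0.023), with no overlap. Ccn5 (ENSMUSG00000027656, chromosome 2, 163662781 to 163675066, plus strand) had 3.96, 4.32 and 3.91 FPKM in the knockout-labelled libraries and 75.3, 73.6 and 70.9 FPKM in the controls. Its highest knockout-labelled library thus stood far below its lowest control library. The scaled log2 fold change was -3.75 (SE 0.050), or 13.4-fold lower in knockout-labelled libraries. Only 109 of the 20388 tested genes had a lower log2 fold change than Ccn5. The knockout-labelled values of Ccn5 rest on 555 to 598 estimated counts per library, and the control values on 10320 to 10956.

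Ccn3 was the member with a higher level in knockout-labelled femur. Ccn3 (ENSMUSG00000037362, chromosome 15, 54609098 to 54617435, plus strand) had 5.95, 5.33 and 4.82 FPKM in the knockout-labelled libraries and 1.27, 1.16 and 1.09 FPKM in the controls. All knockout-labelled libraries were above all controls. The scaled log2 fold change was 2.61 (SE 0.11), or 6.12-fold higher, and 312 tested genes had a higher one. Ccn3 was a minor member even so, with 238 to 269 estimated counts in each control library.

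Ccn6 (ENSMUSG00000062074, chromosome 10, 39026966 to 39039790, minus strand) did not pass the filter on low counts. It had 3, 25 and 0 estimated counts in the knockout-labelled libraries and 16, 4 and 5 in the controls. Only 1 library of each group exceeded the limit of 12 counts that a count of 0 allows, and the groups overlapped, so no fold change is given. A difference in Ccn6 was not detectable at this depth.

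The spread between replicates of the 5 members above the filter lay from below counting error to nearly 2 times it. The coefficient of variation of FPKM was 3.98% in knockout-labelled and 3.34% in control libraries for Ccn1, where counting error at 4 counts per read pair gives 2.85% and 1.84% in the same order. For Ccn3 it was 10.5% in knockout-labelled and 7.59% in control libraries, against 5.91% and 12.5% from counting. For Ccn5 it was 5.56% and 3.05%, against 8.29% and 1.94%. The control libraries of Ccn2 varied by 0.775%, less than the 2.01% that counting gives.

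The make-up of the family differed between the groups. Summed FPKM of the 6 genes was 98.5, 98.3 and 99.9 in the knockout-labelled libraries and 248, 248 and 249 in the controls. Ccn5 held 4.11% ± 0.255 of this sum in knockout-labelled and 29.5% ± 0.984 in control libraries (SD, n = 3 each). Ccn2 held 31.2% ± 0.892 in knockout-labelled and 18.5% ± 0.0872 in control libraries. Ccn1 kept a similar place, at 33.1% ± 1.20 in knockout-labelled and 31.2% ± 0.965 in control libraries. Ccn4 held 26.0% ± 0.527 in knockout-labelled and 20.2% ± 0.245 in control libraries, and Ccn3 5.43% ± 0.605 and 0.474% ± 0.0371 in that order. These shares are not independent of each other, since a loss of Ccn5 raises the share of every other member.

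**Figure D2:**
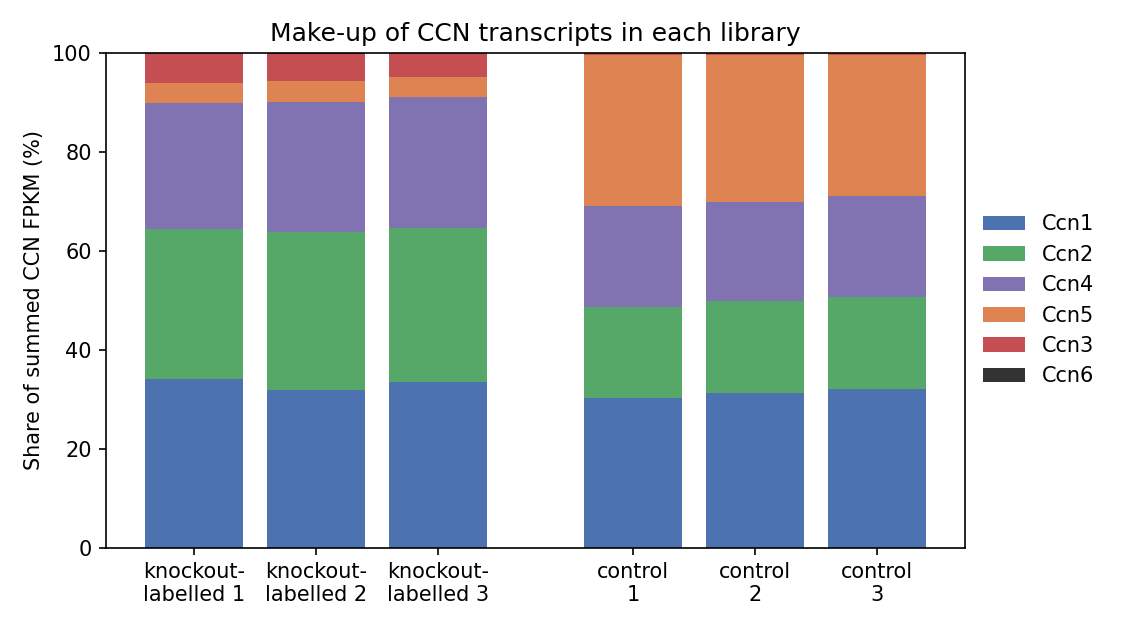
Share of the summed FPKM of the 6 CCN genes (vertical axis, percent) in each library, the 3 knockout-labelled bars to the left of the 3 control bars. Ccn5 takes 3.91% to 4.40% of the sum in knockout-labelled libraries and 28.5% to 30.4% in controls, and Ccn6 is too scarce to be seen.

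The order of levels, compared per kilobase in FPKM, differed between the groups for Ccn5, Ccn2 and Ccn3. In knockout-labelled libraries it ran from Ccn1 (mean 32.8) through Ccn2 (30.9), Ccn4 (25.7), Ccn3 (5.37) and Ccn5 (4.07) to Ccn6 (0.0897). In control libraries it ran from Ccn1 (mean 77.4) through Ccn5 (73.3), Ccn4 (50.2), Ccn2 (46.0) and Ccn3 (1.18) to Ccn6 (0.0753). Ccn1 and Ccn2 overlapped in the knockout-labelled libraries, and Ccn1 and Ccn5 overlapped in the controls. All other neighbours in these orders were separated in every library. Ccn5 therefore had rank 5 of 6 in the knockout-labelled libraries and rank 2 in the controls, while Ccn2 had rank 2 in the knockout-labelled libraries and rank 4 in the controls, and Ccn3 rank 4 in the knockout-labelled libraries and rank 5 in the controls.

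The main transcript of every member had 5 exons, with lengths from 1419 bases in Ccn6 to 5097 bases in Ccn4. Ccn2 and Ccn6 lie 14.6 megabases apart on chromosome 10, and Ccn3 and Ccn4 12.1 megabases apart on chromosome 15. Ccn3 and Ccn4 differed between the groups in opposite directions. The mix of transcripts within a gene was nearly the same in both groups. The main Ccn2 transcript (ENSMUST00000020171) held 93.6% ± 0.968 of the summed FPKM of the gene's transcripts in knockout-labelled and 94.7% ± 1.75 in control libraries (SD, n = 3 each), a gap smaller than the SD of the controls. The main Ccn4 transcript (ENSMUST00000005255) held 97.1% ± 1.09 and 97.1% ± 0.961 in the same order. For Ccn5 the coding transcript (ENSMUST00000029188) held 95.3% ± 3.29 in knockout-labelled and 95.5% ± 0.553 in control libraries. The other Ccn5 transcript (ENSMUST00000138730), annotated with no defined coding sequence, was at 0.0427, 0.294 and 0.325 FPKM in knockout-labelled libraries. It had 3.87, 3.28 and 4.07 FPKM in control libraries, so both Ccn5 transcripts were low together in knockout-labelled libraries.

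Markers of several tissues moved with these values. Counts of genes higher, lower, rising or falling below are of genes past an adjusted p of 0.05 (edgeR with TMM unless stated). Of all tested genes 28.7% were higher and 28.8% lower in this way. Among genes with a mean FPKM of at least 2, 75.5% were past the threshold, and the endothelial (72.7%) and mural (80.0%) lists were near that share. Transcripts of 16 osteoblast and bone matrix genes took 2.16% to 2.18% of counts in knockout-labelled and 10.8% to 10.9% in control libraries, and all 16 fell. Transcripts of 19 skeletal muscle genes took 11.1% of counts in each knockout-labelled library and 2.33% to 2.37% in controls, and all 19 rose, Acta1 by 2.38 (SE 0.013) on the log2 scale. Endothelial genes held 0.0537% to 0.0549% of counts in knockout-labelled and 0.0659% to 0.0668% in control libraries, with 5 of 11 higher and 3 lower. Chondrocyte genes held 0.104% to 0.107% and 0.434% to 0.442% in that order, with Col2a1 lower (log2 fold change -2.17, SE 0.017) but 7 of 12 tested genes higher. Adipocyte genes held 0.0536% to 0.0550% of counts in knockout-labelled and 0.0123% to 0.0125% in control libraries, and all 8 rose. Fibroblast and periosteum genes held 0.179% to 0.180% and 0.256% to 0.259% in that order, with 6 of 10 higher and 3 lower. Osteoclast genes held 0.172% to 0.176% of counts in knockout-labelled and 1.19% in control libraries, and all 11 fell. Osteocyte genes held 0.311% to 0.313% and 0.484% to 0.486% in that order, with 3 of 10 higher and 6 lower, tendon genes 0.0716% to 0.0744% and 0.0783% to 0.0811%, with 6 of 8 higher and 2 lower, and mural cell genes 0.269% to 0.273% and 0.137% to 0.139%, with 7 of 10 higher and 1 lower. Several of these splits depended on scaling, by counts added after the data were seen. With library totals 0 of 11 endothelial genes were higher and 9 lower, and the FPKM of all 11 was lower in knockout-labelled libraries. With the same totals the chondrocyte split was 5 higher and 5 lower, the mural split 5 and 4, the fibroblast split 4 and 5, the osteocyte split 1 and 7 and the tendon split 5 and 2. The bone matrix, osteoclast, muscle and adipocyte splits were the same with library totals. The part of these markers in the CCN values was not tested. In bulk femur, fewer cells of a type and less RNA per cell cannot be told apart.

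Set against the bone matrix transcripts, which were themselves lower, Ccn1, Ccn2, Ccn3 and Ccn4 were higher and Ccn5 was lower in knockout-labelled femur. Per 1000 FPKM of the osteoblast and bone matrix list, Ccn1 stood at 9.25, 8.5 and 9.09 FPKM in knockout-labelled and 3.97, 4.13 and 4.25 FPKM in control libraries. Ccn2 stood at 8.43 ± 0.197 in knockout-labelled and 2.44 ± 0.0217 in control libraries, and Ccn4 at 7.03 ± 0.166 and 2.67 ± 0.0342 in that order (SD, n = 3 each). Their levels were thus less reduced than those of the bone matrix genes. Ccn5 was the exception, at 1.09, 1.18 and 1.06 FPKM in knockout-labelled and 4.00, 3.92 and 3.77 FPKM in control libraries, a log2 ratio of -1.81. Ccn5 was thus reduced further than the bone matrix list. The scaled log2 fold change of Ccn5 was -3.75. Those of Col1a1, Sparc and Col1a2, the main genes of that list, were -1.94, -1.79 and -1.96. The outcome depended on the list set beside the members. Against the endothelial list the ratio of knockout-labelled to control libraries was 0.540 for Ccn1, 0.857 for Ccn2, 0.655 for Ccn4 and 0.0709 for Ccn5, and against the fibroblast and periosteum list it was 0.442, 0.701, 0.536 and 0.0580 in the same order. Against the mural list, which holds genes that skeletal muscle also expresses, it was 0.206, 0.327, 0.250 and 0.0270. The list sums are led by few genes. Des of the mural list had 521 FPKM in knockout-labelled and 181 FPKM in control libraries, and Gsn of the fibroblast list 272 and 200 FPKM. Against the chondrocyte list the ratio was 1.14, 1.81, 1.39 and 0.150 for Ccn1, Ccn2, Ccn4 and Ccn5. Ccn3 was higher against each of these lists, from 2.23 (mural) to 23.5 (bone matrix), and Ccn5 was lower against each. No ratio was computed against the skeletal muscle or adipocyte lists. Their median scaled log2 fold changes were 2.62 and 4.05, beside 2.61 for Ccn3, so Ccn3 is not shown to be higher against every tissue. These ratios were computed on the same contrast and carry no test.

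**Figure D3:**
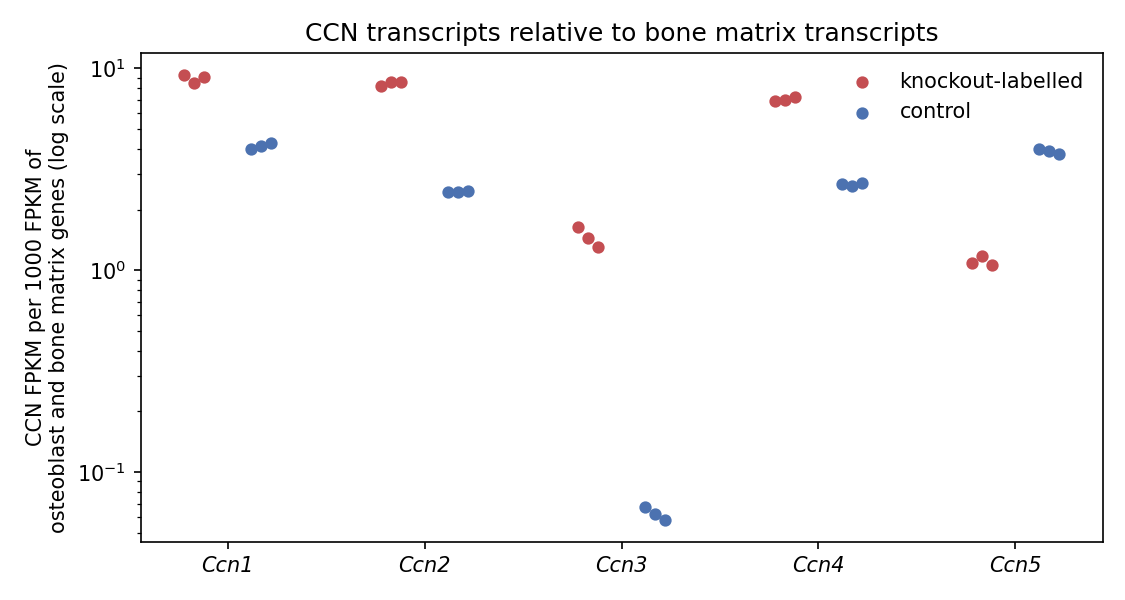
FPKM of 5 CCN genes per 1000 FPKM of the 16 osteoblast and bone matrix genes (vertical axis, log scale) in each library, knockout-labelled points left of control points. Ccn1 to Ccn4 lie above the controls on this scale, and Ccn5 lies below them, at 1.06 to 1.18 in knockout-labelled and 3.77 to 4.00 in control libraries.

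The Hippo pathway, a kinase cascade that holds YAP and TAZ in the cytoplasm, regulates Ccn1 and Ccn2 in many cell types. Of 31 tested Hippo components, 9 rose, 18 fell and 4 did not pass the threshold (edgeR, adjusted p under 0.05), with a median log2 fold change of -0.23 where that of all tested genes was -0.02. In this list 87.1% of tested genes passed, where 57.5% of all tested genes and 75.5% of those with a mean FPKM of at least 2 did. The effectors went apart: Wwtr1, which encodes TAZ, fell (-0.37, SE 0.033), while Yap1 was higher by 0.18 (SE 0.018) with TMM but lower, at -0.24, with library totals and at -0.57 with TPM. Both were named after their values were seen. Tead1, a DNA-binding partner of YAP, rose to 8.12 ± 0.152 FPKM in knockout-labelled libraries, against 4.12 ± 0.110 FPKM in controls (log2 fold change 1.41, SE 0.028). Vgll2, a TEAD cofactor of skeletal muscle, and Amotl1, a junctional YAP-binding protein, rose by 1.58 and 1.13 on the log2 scale, beside the muscle genes described above. The kinase gene Map4k4 and the scaffold gene Frmd6 fell by 1.43 and 1.17. Sav1, the scaffold of the Hippo kinases, and Wwc1 did not pass at 0.06 (SE 0.044) and -0.04 (SE 0.30). With library totals Sav1 was past the threshold as lower, at -0.36, and the list split was 5 higher and 22 lower.

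Other target genes of YAP and TAZ, in a list that leaves out the CCN genes, were mostly lower. Of 21 tested targets, 13 fell, 6 rose and 2 did not pass, or 90.5% past the threshold, with a median log2 fold change of -0.53, where 75.5% of genes with a mean FPKM of at least 2 passed. The 6 that rose depended on the scaling, with 3 higher with library totals and 0 higher and 18 lower with TPM. Ccn1 (-0.82) lay below and Ccn2 (-0.15) above that median. Foxf2, a forkhead transcription factor gene, fell to 0.443 ± 0.0472 FPKM in knockout-labelled libraries, against 5.50 ± 0.407 FPKM in controls (log2 fold change -3.20, SE 0.11). Dock5, Myof and the matrix protein gene Ccdc80 fell by 1.52, 1.47 and 0.66 on the log2 scale. Tgfb2 rose by 0.73 (SE 0.017), though it stood at -0.05 with TPM. Axl, a receptor tyrosine kinase gene, and Nt5e, which encodes CD73, did not pass at -0.04 (SE 0.021) and 0.10 (SE 0.11), but with library totals both were past the threshold as lower, at -0.46 and -0.32.

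TGF-beta induces Ccn2 in fibroblasts and other mesenchymal cells. Of 29 tested genes of the TGF-beta pathway, 6 rose, 17 fell and 6 did not pass, or 79.3% past the threshold, with a median log2 fold change of -0.29. That share is near the 75.5% among genes with a mean FPKM of at least 2. With TPM 1 was higher and 26 were lower. The receptor genes Tgfbr1 and Tgfbr2 fell to 8.17 ± 0.409 and 12.4 ± 0.212 FPKM in knockout-labelled libraries, against 36.1 ± 0.452 and 33.8 ± 0.531 FPKM in controls. Their log2 fold changes were -1.72 (SE 0.041) and -1.02 (SE 0.019). Pmepa1, a feedback inhibitor of the pathway, fell by 0.91. The ligand gene Tgfb1, named after its values were seen, fell by 0.35, whereas Tgfb3 rose by 0.66 with TMM and stood at -0.12 with TPM. Ltbp4, which binds latent TGF-beta, rose by 1.02. Smad4 and Lrrc32 did not pass, at 0.02 (SE 0.041) and -0.01 (SE 0.063), but with library totals both were past the threshold as lower, at -0.40 and -0.43.

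Receptors and binding partners of CCN proteins were mostly lower. Of 31 tested genes, 22 fell, 4 rose and 5 did not pass, or 83.9% past the threshold against the same 75.5%, with a median log2 fold change of -0.36. With FPKM, where 28 were tested, 1 was higher and 26 were lower. Sdc1, a heparan sulfate proteoglycan, fell to 6.33 ± 0.200 FPKM in knockout-labelled libraries, against 42.9 ± 1.23 FPKM in controls (log2 fold change -2.34, SE 0.034). Itgav, the alpha v integrin that binds CCN1 and CCN2, fell by 1.56 (SE 0.045). Lrp1, a scavenger receptor for CCN2, fell by 1.23, fibronectin (Fn1) by 1.11 and biglycan (Bgn) by 0.72. The 4 higher members, named after their values were seen, were Itgb6 (2.51), Acan (2.06), Itga8 (1.23) and Vegfa (0.40, but -0.02 with library totals and -0.37 with TPM). Acan and Itga8 stayed below 1 FPKM in the mean of either group. Itga6 and Itgb8 did not pass, at 0.09 (SE 0.089) and -0.07 (SE 0.43), but with library totals Itga6 was past the threshold as lower, at -0.33.

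Target genes of Wnt signalling, the pathway after which Ccn4 and Ccn5 were first named, formed the last list. Of 19 tested genes, 10 fell, 3 rose and 6 did not pass, or 68.4% past the threshold, with a median log2 fold change of -0.63. That share lies between the 57.5% of all tested genes and the 75.5% of those with a mean FPKM of at least 2. Tnfrsf19, a Wnt-induced receptor gene, fell to 7.89 ± 0.163 FPKM in knockout-labelled libraries, against 42.3 ± 1.14 FPKM in controls (log2 fold change -2.00, SE 0.025). Nkd2, a feedback inhibitor of Wnt signalling, fell by 2.11, Twist1 by 1.69 and the cyclin gene Ccnd1 by 0.81. The 3 higher members were Sox9 (1.19), the receptor gene Fzd7 (0.99) and Dkk1 (0.45), of which Sox9 and Dkk1 were named after their values were seen. Axin2, a common reporter of the pathway, and Znrf3 did not pass, at 0.19 (SE 0.14) and -0.11 (SE 0.15). Dkk1 did not pass with library totals (0.03) and was past the threshold as lower with TPM (-0.32), and Sox9 did not pass with TPM (0.29). Znrf3 was past the threshold as lower with library totals (-0.53), and Axin2 with TPM (-0.43). The lists share members (Tgfb1 and Tgfb2 for example), so their counts are not independent.

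**Figure D4:**
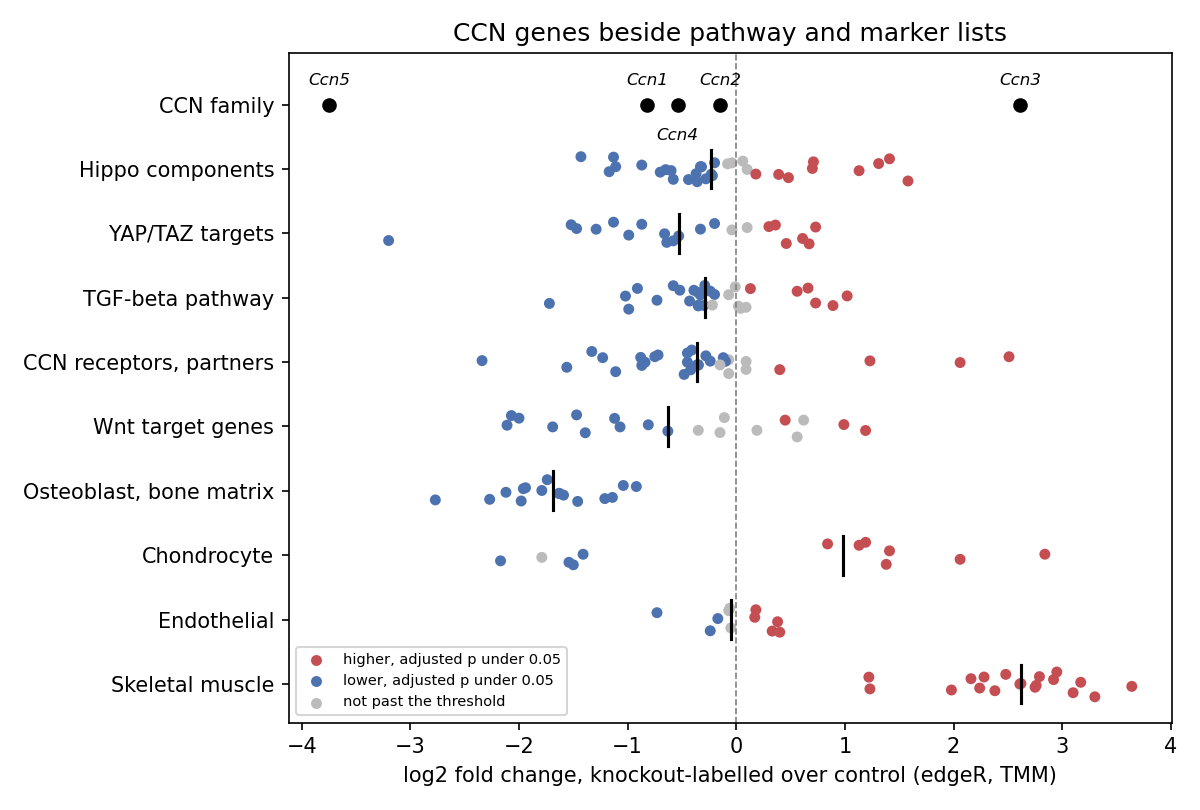
Log2 fold change of knockout-labelled over control libraries (horizontal axis, edgeR with TMM scaling) for the 5 CCN genes above the filter and for the tested genes of 5 pathway and 4 marker lists. CCN genes are black points with no test, other coloured points are past an adjusted p of 0.05, grey points are not, and black bars are list medians. The CCN genes reach from -3.75 (Ccn5) to 2.61 (Ccn3), while the pathway list medians lie between -0.63 and -0.23.

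The genes whose profile over the 6 libraries was most like that of each member were found by the root mean square difference of centred log2 CPM, among 10320 named genes with a mean FPKM of at least 2. Ccn2 was most like Ly6e (0.0081), the type III collagen gene Col3a1 (0.0096) and Kdm2a (0.012). Ccn1 was most like Pyroxd2 (0.010), Myo7a (0.028) and Retnlg (0.029), and Ccn4 was most like Slc44a1 (0.012), Ftl1 (0.013) and Hk3 (0.016). Within a wider distance of 0.1 lay 1729 genes for Ccn2, 1046 for Ccn4 and 483 for Ccn1. Within the same distance lay 7 genes for Ccn3 and 2 for Ccn5, the members with the largest fold changes. Nearest to Ccn3 were Kbtbd13 (0.071), the muscle chloride channel gene Clcn1 (0.086) and the fatty acid elongase gene Elovl6 (0.086). Nearest to Ccn5 were the carbonic anhydrase gene Car12 (0.087), the antibody segment Ighv1-58 (0.087) and the collagenase gene Mmp13 (0.18). Ighv1-58 had only 10, 11 and 11 estimated counts in the knockout-labelled libraries and can share reads with near-identical segments, so its place is uncertain. With 3 libraries in each of 2 groups, this likeness mostly reads the size of the group difference.

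The sizes of the fold changes depended on the scaling, and that of Ccn3 also on the pseudocount, but their directions did not. Ccn2 ranged from -0.92 on log2(TPM + 1) to -0.15 with TMM, a shift larger than its scaled value. Ccn1 ranged from -1.58 to -0.81, Ccn4 from -1.30 to -0.53 and Ccn5 from -4.39 to -3.74 over the 10 settings plotted. Ccn3 ranged from 1.55 on log2(FPKM + 1) to 2.62 with median-of-ratios scaling. Its low end came with a pseudocount of 1 beside a control mean of 1.18 FPKM. On log2(FPKM + 0.1) Ccn3 stood at 2.1, and with library totals at 2.19. Library totals moved the typical gene by -0.42 and TPM by -0.72 relative to TMM. The TMM factors were 0.863 to 0.866 in knockout-labelled and 1.156 to 1.159 in control libraries, and FPKM totals were 422387 to 425480 in knockout-labelled and 331885 to 333327 in control libraries.

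**Figure D5:**
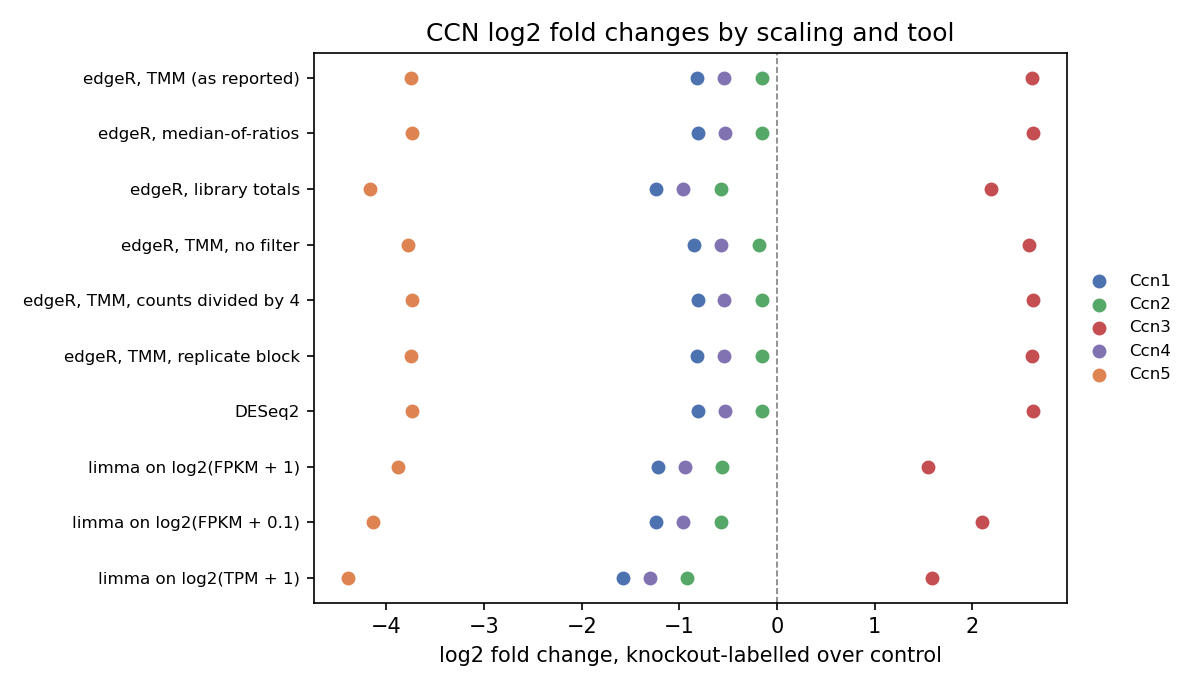
Log2 fold change of knockout-labelled over control libraries (horizontal axis) for 5 CCN genes under each of 10 settings of tool, scaling, filter, unit and block (vertical axis). Ccn5 stays lowest, from -4.39 to -3.74, Ccn3 is above 0 in each setting, and Ccn2 is nearest to 0, from -0.92 to -0.15.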

How the data were processed

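Poly(A)-selected, stranded, paired-end RNA-seq of femur was deposited as gene and transcript tables. Libraries were grouped by their treatment label, and replicate numbers follow the titles. Per the submitters' processing notes, fastp, HISAT2, StringTie and RSEM were used with build GRCm39, in roles and versions not given in the sources used here. FPKM values (fragments scaled to transcript length and library size) were made by the authors and are printed as deposited. The deposited estimated counts are whole numbers. In every library at least 99.2% of transcript counts above 0 lay within 2 counts of FPKM times length and a constant, so they are expected counts, and they were rounded to whole numbers before fitting. In single-exon genes 43.8% to 49.2% of counts from 1 to 12 were 4, 8 or 12, so a read pair was taken as 4 counts. Floors and counting errors cover counting error only.

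Of 34361 genes, 20388 passed filterByExpr and were fitted with edgeR 4.0.16 in R 4.3.3 (TMM, group only, quasi-likelihood test, two-sided, Benjamini-Hochberg at 0.05). Such a fit borrows variance across genes, and an exact test of 3 against 3 could not go below 0.1. SEs come from replicate log2 CPM (prior count 2). Alternatives were DESeq2 1.42.0, limma 3.58.1 on FPKM or TPM, other scalings and filters, a replicate block and leaving out each library. Members, gene lists and tests were chosen with earlier results of these data known, and the motif words after the sequences were seen. Named genes are all members, up to 5 called genes per pathway list by p and 2 with the largest p, up to 3 abundant marker genes per tissue (mural and endothelial ones are not printed) and 3 most like each member. Of the steps, only the edgeR fit was tried on simulated data. Few genes were changed in that simulation, unlike here, so it did not test the scaling. Ccn6 was left out of the fit by the filter.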

Additional observations from a re-analysis of the deposited data

How the results depend on the processing

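Without 1 library the log2 fold change ranged from -0.84 to -0.78 for Ccn1, -0.16 to -0.13 for Ccn2, 2.53 to 2.69 for Ccn3, -0.56 to -0.53 for Ccn4 and -3.79 to -3.72 for Ccn5, given as a description because the family was chosen on this contrast. Same-numbered libraries showed no shared deviation from their group means, with correlations of -0.004, -0.026 and 0.006. Deviations within so small a group are tied to each other, so these values cannot settle whether the libraries were paired. With the replicate block 11344 genes were called instead of 11732, and Ccn1, Ccn2, Ccn3, Ccn4 and Ccn5 stood at -0.82, -0.15, 2.61, -0.54 and -3.75. None of the 6 libraries correlated best with its own number. Without 1 library, 5536 to 5598 genes were higher and 5359 to 5734 lower.

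The balance of higher and lower genes depended on scaling, and the limma fits also tested fewer genes. Those fits kept genes at 1 FPKM or TPM or more in at least 3 libraries, or 13778 and 16528 genes in that order. Some listed genes thus left the counts below by going untested. With TMM, 5860 genes were higher and 5872 lower. Library totals gave 3379 higher and 10339 lower, limma on log2(FPKM + 1) 2822 higher, limma on log2(FPKM + 0.1) 2819 higher, and limma on log2(TPM + 1) 1998 higher and 12377 lower. Of the Hippo components, 5 were higher with library totals and 4 in each limma fit, where 28 were tested with FPKM and 30 with TPM. Of the YAP and TAZ targets, 3 were higher with library totals, 3 with FPKM at either pseudocount and 0 with TPM. In the TGF-beta list 1 was higher and 26 were lower with TPM. Among receptors and partners 1 of 28 tested was higher with FPKM at either pseudocount and 2 of 29 with TPM. Among Wnt targets 1 was higher in each limma fit, where 13 were tested with FPKM and 18 with TPM. The shift of the typical gene by these scalings is given above.

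Some fold changes changed sign with them, among them Tgfb2, Tgfb3, Vegfa and Dkk1, which were called higher with TMM. In the order library totals, log2(FPKM + 1), log2(FPKM + 0.1) and log2(TPM + 1), Sav1 stood at -0.36, -0.34, -0.36 and -0.69, Smad4 at -0.40, -0.38, -0.40 and -0.73 (-0.0081 with no filter), Itga6 at -0.33, -0.29, -0.33 and -0.65, Axin2 at -0.23, -0.12, -0.21 and -0.43, Yap1 at -0.24, -0.22, -0.24 and -0.57, and Vegfa at -0.021, -0.024, -0.025 and -0.37. Nt5e stood at -0.32 with library totals and -0.48 with TPM. Axl stood at -0.46, -0.44, -0.46 and -0.80 and Lrrc32 at -0.43, -0.35, -0.43 and -0.72 in the first order, past the threshold in each. With TPM, Tgfb2 stood at -0.048, Tgfb3 at -0.12 and Dkk1 at -0.32. Wwc1 stood at 0.013 with the replicate block. Without 1 library, Wwc1 ranged from -0.26 to 0.27, Nt5e from -0.014 to 0.17, Lrrc32 from -0.059 to 0.024, Smad4 from -0.0053 to 0.05 and Itgb8 from -0.54 to 0.18. The cause was not tested. Ccn6 and other genes near 12 counts are limited by depth.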
